A study of Mus musculus with 24 samples.

Results

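The 6 genes described across RNA-seq libraries of mouse naive embryonic stem cells (ESCs) belong to the aryl hydrocarbon receptor (AHR) pathway: the cytochrome P450 genes Cyp1a1 and Cyp1b1, the receptor Ahr, its partner Arnt, and the feedback genes Ahrr and Tiparp. The members are those 6 of the 55385 Ensembl genes in each of 6 deposited FPKM tables (fragments per kilobase of exon, scaled to the size of the library). They were selected on their values in earlier analyses of these same 6 tables, so their levels and differences below are a description and carry no test. For them only the number that limma called in each table is given, beside the share of all genes called, and nothing is read from it. Adjusted p-values are printed for other genes of the pathway, whose lists were also drawn up with earlier results of these data known.

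The series holds 24 libraries in 12 groups of 2, and each table holds the 4 libraries of 1 comparison. Naive ESCs kept in 2i/LIF medium (a pair of kinase inhibitors with leukemia inhibitory factor) were sorted by the dye TMRM into High and Low libraries, that is, cells with high and low mitochondrial membrane potential (ΔΨm), the low cells being the spontaneous quiescent ESCs (qESCs). Other ESCs received the siRNA pool siMat2a against Mat2a, which encodes the enzyme that makes S-adenosylmethionine (SAM), or the non-targeting pool siCtr. In the induced qESCs, ETO stands for etomoxir, an inhibitor of fatty acid oxidation (FAOi), set against H2O, and MYCi stands for a small-molecule inhibitor of MYC, set against DMSO. EedKO libraries came from Eed-/- ESCs, which lack a core subunit of the H3K27 methyltransferase PRC2, and Het libraries from Eed fl/- ESCs. Both Eed genotypes were male lines from 129/S1 embryos, made with a Cre driven by the Protamine promoter. They were derived on feeder fibroblasts in 2i/LIF medium with serum and serum replacement, and were expanded on feeders. The 2i/LIF medium given for the other naive ESCs lists no serum, so culture differs between the Eed table and the rest. A genotype stands for derived lines rather than for an acute loss, and the Het cells already carry 1 null allele. LowSAM25uM and LowSAM50uM libraries were low-ΔΨm cells given 25 or 50 µM SAM, and their table has no untreated library.

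AHR is a ligand-activated transcription factor of the bHLH-PAS family that waits in the cytoplasm with chaperones such as HSP90 and p23 (Ptges3). Ligands such as dioxins, aromatic hydrocarbons and tryptophan metabolites send it to the nucleus, where it pairs with ARNT and binds the xenobiotic response element, whose core is GCGTG. CYP1A1 and CYP1B1 are haem monooxygenases that oxidise such ligands and are the classical readout of the pathway, AHRR competes with AHR for ARNT, and TIPARP (a mono-ADP-ribosyl transferase also called PARP7) modifies AHR and lowers its activity. ARNT is also the partner of the hypoxia-inducible factors (HIFs), and AHR has been studied in ESCs for its place in the choice between pluripotency and differentiation.

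The 250 bases before the RefSeq start of the 2 P450 genes and the 2 feedback genes are shown because the 4 are textbook AHR targets, with each GCGTG core in capitals on the printed strand and each core of the opposite strand in capitals as CACGC:
Cyp1a1: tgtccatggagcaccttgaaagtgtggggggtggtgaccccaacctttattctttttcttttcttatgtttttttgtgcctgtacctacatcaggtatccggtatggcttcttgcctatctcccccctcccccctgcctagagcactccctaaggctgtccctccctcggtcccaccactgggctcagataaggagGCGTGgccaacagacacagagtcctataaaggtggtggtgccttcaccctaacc
Cyp1b1: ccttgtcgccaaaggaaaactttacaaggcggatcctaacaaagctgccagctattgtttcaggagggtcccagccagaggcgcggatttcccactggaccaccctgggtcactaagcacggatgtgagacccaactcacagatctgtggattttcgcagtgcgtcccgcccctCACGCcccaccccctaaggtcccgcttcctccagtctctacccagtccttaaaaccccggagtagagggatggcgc
Ahrr: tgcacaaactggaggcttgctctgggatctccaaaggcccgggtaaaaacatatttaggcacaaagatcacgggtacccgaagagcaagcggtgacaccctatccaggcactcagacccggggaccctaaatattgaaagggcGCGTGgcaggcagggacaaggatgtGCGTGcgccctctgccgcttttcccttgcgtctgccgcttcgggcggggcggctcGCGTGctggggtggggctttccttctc
Tiparp: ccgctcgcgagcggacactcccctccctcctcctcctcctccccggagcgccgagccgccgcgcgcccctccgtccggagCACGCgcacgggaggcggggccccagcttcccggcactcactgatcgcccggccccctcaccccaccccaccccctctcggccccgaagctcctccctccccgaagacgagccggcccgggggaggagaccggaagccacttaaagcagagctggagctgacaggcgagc
On build GRCm38.p6 these windows were chr9:57697363-57697612 on the plus strand for Cyp1a1, chr17:79715062-79715311 on the minus strand for Cyp1b1, chr13:74292332-74292581 on the minus strand for Ahrr and chr3:65528197-65528446 on the plus strand for Tiparp. Ahrr held 3 cores, a number reached by 2.77% of 32851 RefSeq promoters of the same length, whereas Cyp1a1, Cyp1b1, Tiparp and also Arnt (chr3:95434140-95434389, plus strand) held 1 each. At least 1 core on either strand was found in 28.2% of those promoters, so within this window a single core sets none of these genes apart. Cores outside the 250 bases are not described here. GCGTG is also a form of the HIF core, and a match in these letters is a description of the window and no evidence of binding. RefSeq promoters matched 5 of the 6 members, and Ahr had no entry.

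In Ensembl annotation of GRCm38, Cyp1a1 (ENSMUSG00000032315) spans chr9:57687928-57703824, so that the RefSeq window above lies inside its longest gene model. Cyp1b1 (ENSMUSG00000024087) spans chr17:79701537-79715061, Ahr (ENSMUSG00000019256) chr12:35497974-35535038, Ahrr (ENSMUSG00000021575) chr13:74211118-74292331, Arnt (ENSMUSG00000015522) chr3:95434388-95497240 and Tiparp (ENSMUSG00000034640) chr3:65528410-65555518. Fragments were counted over exons without strand and were divided among overlapping features, so the level of Tiparp cannot be told apart from its antisense neighbour 4931440P22Rik where the models overlap, and Ahr shares its span with the lincRNA Gm48236 and Arnt with the pseudogene Gm42672. Cyp1a1, Cyp1b1 and Ahrr overlapped no other annotated gene.

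Depth, estimated from the size of the FPKM steps and the exon lengths, was about 27.3 to 64.5 M fragments (M, mega) over genes per library. The targeted genes went the way of their labels: Mat2a was at 48.5 and 45.1 FPKM in siCtr and 13.5 and 9.44 FPKM in siMat2a, and Eed was at 11.4 and 11.6 FPKM in Het and 2.72 and 2.78 FPKM in EedKO. All 12 naive ESC markers checked, Pou5f1, Sox2 and Nanog among them, were detected in each library. The treated cells of 4 tables had lower FPKM over most genes, and a median-of-ratios rescaling of the libraries moved the median log2 fold change of all genes by 0.70 in the siMat2a table, 0.74 with etomoxir, 0.72 with MYCi and 0.41 between SAM doses, against -0.05 for ΔΨm and -0.11 for Eed. Each member difference is therefore given on the deposited scale and again after rescaling, which sets the typical gene to no change. Libraries of a group are described as independent biological replicates, but whether they came from separate cultures is not given in the sources used here, so the p-values measure the spread between these libraries, which may be technical. In bulk RNA, fewer expressing cells and less RNA per cell cannot be told apart.

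Cyp1a1 and Cyp1b1 varied most among the members. Over the 24 libraries Cyp1a1 ran from 0.353 FPKM in an H2O library through a median of 1.04 to 13.9 FPKM in an ETO library, a 39.3-fold range. Cyp1b1 ran from 0.0239 FPKM in a High library through 0.194 to 4.46 FPKM in a Het library, a 187-fold range. Ahrr was the lowest member, from 0.0208 through 0.0529 to 0.484 FPKM, and its highest library was again ETO. The receptor and its partner varied far less: Ahr from 1.04 through 2.52 to 3.91 FPKM, and Arnt from 7.87 through 11.5 to 28.1 FPKM. Tiparp, the most abundant of the feedback genes, ran from 5.47 through 11.3 to 20.4 FPKM. These ranges set libraries of separately normalized tables side by side and include differences between tables.

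**Figure D1:**
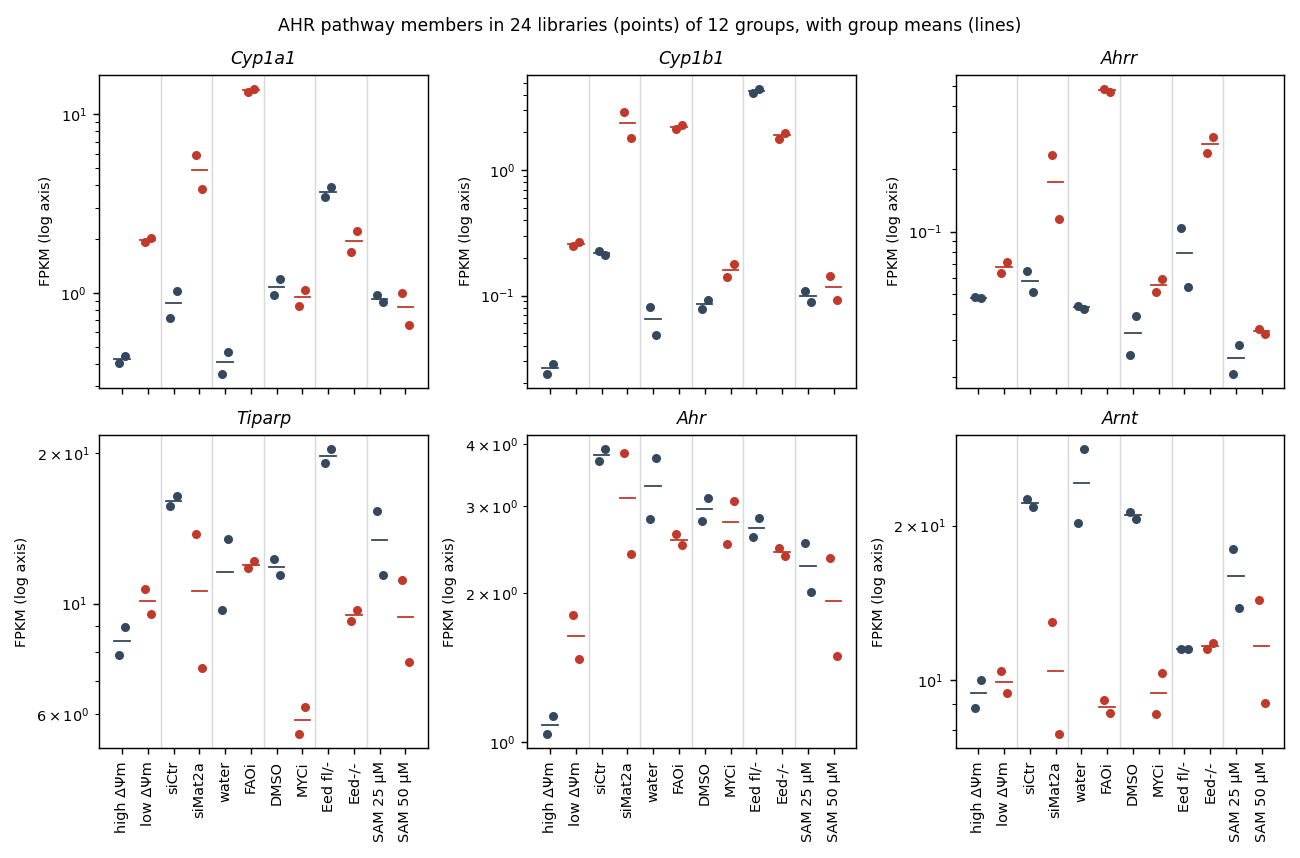
FPKM (log axis) of the 6 members in each of the 24 libraries, grouped by table, with a point for each library and a bar at the mean of the 2. Axis names give Low as low ΔΨm, ETO as FAOi, H2O as water, EedKO as Eed-/- and Het as Eed fl/-. Cyp1a1, Cyp1b1 and Ahrr lie above their controls in ETO and siMat2a libraries, and Ahr, Arnt and Tiparp stay within a 3.77-fold range.

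Ordered by group mean, Cyp1a1 was highest in ETO, then in siMat2a and Het, whose libraries overlapped, then in Low and EedKO, which overlapped too. DMSO, MYCi, LowSAM25uM, siCtr and LowSAM50uM followed, each overlapping the next, and High and H2O overlapped at the bottom. Cyp1b1 followed a different order, with Het at the top, then siMat2a and ETO overlapping, then EedKO, Low and siCtr each apart from the next, then MYCi, both SAM groups, DMSO and H2O in a run of overlaps, and High apart at the bottom. Of the 11 pairs of neighbours, 7 overlapped for Cyp1a1, 5 for Cyp1b1, 5 for Ahrr, 9 for Ahr, 8 for Arnt and 8 for Tiparp. Shares over all genes are not given for these counts, and nothing is read from them. Like the ranges, the order sets separately normalized tables side by side on the deposited scale. For Ahr the order began with siCtr, H2O and siMat2a and ended with Low and, apart from it, High. Arnt was highest in H2O, siCtr and DMSO, the controls of the 3 tables in which it was lower after treatment.

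The sort by ΔΨm asked how spontaneous qESCs differ from cycling ESCs, and both P450 genes were higher in the low cells. Cyp1a1 was at 0.405 and 0.444 FPKM in High and at 1.92 and 2.03 FPKM in Low, means of 0.425 ± 0.0273 and 1.97 ± 0.0827 (SD, n = 2), 4.65-fold apart. Cyp1b1 was at 0.0239 and 0.0287 FPKM in High, where it rested on about 9 and 8 fragments, and at 0.249 and 0.268 FPKM in Low, about 84 and 66 fragments, a 9.83-fold difference of means. For both genes the Low libraries lay clear of the High ones. On the log2(FPKM + 0.1) scale, which understates the change of low genes, the differences were 1.98 (SE 0.15) for Cyp1a1 and 1.5 (SE 0.24) for Cyp1b1, and after rescaling 1.94 (SE 0.10) and 1.48 (SE 0.16).

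The receptor gene itself was also higher in the low cells. Ahr was at 1.04 and 1.13 FPKM in High and 1.81 and 1.47 FPKM in Low, 1.52-fold higher, with a log2 difference of 0.55 (SE 0.16) and 0.51 (SE 0.08) after rescaling. Arnt, at 8.84 and 10.04 FPKM in High and 10.4 and 9.46 FPKM in Low, overlapped between the groups. Tiparp was at 7.88 and 8.97 FPKM in High and 10.7 and 9.54 FPKM in Low, 1.20-fold higher without overlap. Ahrr stayed under the filter for testing, at 0.0484 and 0.0478 FPKM in High and 0.0633 and 0.0716 FPKM in Low. Limma called 3 of the 5 tested members higher and 0 lower on the deposited scale, where 14.0% of 21086 genes were called higher and 6.45% lower, and 4 higher and 0 lower after rescaling, where the shares were 19.4% and 17.0%. The choice of members used this contrast, so nothing is read from that count.

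The AHR battery holds 25 other textbook AHR targets of xenobiotic metabolism, cell cycle and differentiation. Of 15 tested, 2 rose and 2 fell in Low (5 rose and 2 fell after rescaling), with a median log2 difference of 0.27 against 0.04 over all genes. Polk, a translesion DNA polymerase, rose from 1.52 ± 0.152 to 3.29 ± 0.0866 FPKM (log2 difference 1.07, SE 0.14, limma Benjamini-Hochberg adjusted p = 0.000273). Ccng2, a cyclin of cells leaving the cycle, rose by 0.90 (limma adjusted p = 0.00132). Tgm2, a transglutaminase, fell by 0.74 (limma adjusted p = 0.00992), and Slc7a5, a transporter of large neutral amino acids, fell by 0.73 (limma adjusted p = 0.00837), though without either Low library the Slc7a5 call was lost (limma adjusted p = 0.0763 and 0.214). Cyp1a2, the third gene of the CYP1 family, was at 0.0654 and 0.0625 FPKM in High and 0.110 and 0.177 FPKM in Low and did not pass the test (limma adjusted p = 0.153).

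Depletion of Mat2a tested the loss of the main source of SAM, and Cyp1a1 and Cyp1b1 were again higher while Arnt was lower. Cyp1a1 was at 0.724 and 1.03 FPKM in siCtr and 5.87 and 3.82 FPKM in siMat2a, 5.52-fold higher. Cyp1b1 was at 0.228 and 0.210 FPKM in siCtr and 2.93 and 1.82 FPKM in siMat2a, 10.8-fold higher. Ahrr was at 0.0645 and 0.0515 FPKM in siCtr and 0.232 and 0.115 FPKM in siMat2a. The siMat2a libraries of all 3 genes lay above both siCtr libraries, with siMat2a 1 above siMat2a 2 each time. The median gene of siMat2a 2 lay at -0.54 on the log2 scale from the table's mean level, beside -0.09 for siMat2a 1, and that shift was removed by the rescaling. Log2 differences were 2.33 (SE 0.36) for Cyp1a1, 2.92 (SE 0.34) for Cyp1b1 and 0.76 (SE 0.31) for Ahrr, and rescaled ones 3.03 (SE 0.19), 3.53 (SE 0.16) and 1.11 (SE 0.23).

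Arnt was at 22.5 and 21.7 FPKM in siCtr and 13.0 and 7.87 FPKM in siMat2a, 2.12-fold lower, with a log2 difference of -1.12 (SE 0.42) that shrank to -0.38 (SE 0.09) after rescaling. Ahr, at 3.70 and 3.91 FPKM in siCtr and 3.84 and 2.40 FPKM in siMat2a, overlapped on the deposited scale at a log2 difference of -0.32 and turned to 0.42 without overlap after rescaling. Tiparp, at 15.7 and 16.4 FPKM in siCtr and 13.8 and 7.43 FPKM in siMat2a, likewise went from -0.66 to 0.09. The direction of Ahr and Tiparp thus depends on the scale, and that of Cyp1a1, Cyp1b1, Ahrr and Arnt does not. Limma called 3 of 6 members higher and 1 lower, where 13.1% of 24938 genes were called higher and 36.8% lower, and after rescaling 4 higher and 1 lower, where the shares were 23.0% and 19.8%.

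Cyp1a2 stood out in the battery with Mat2a siRNA. It was at 0.0448 and 0.0230 FPKM in siCtr and 1.24 and 0.772 FPKM in siMat2a. The log2 difference was 3.02 (SE 0.32, limma adjusted p = 1.53e-18), and 3.44 after rescaling. With both siCtr libraries under 0.1 FPKM, Cyp1a2 could enter the test only by rising, and nothing is read from its call. It was the only battery gene of 15 tested that rose on the deposited scale, while 9 fell, with a battery median of -1.07 against -0.63 over all genes, and after rescaling 2 rose and 5 fell. Gsta1, a glutathione transferase whose sequence is shared with Gsta2 so that their split is uncertain, fell by 2.63 (limma adjusted p = 1.29e-13) but not after rescaling (-2.01, limma adjusted p = 0.0685). Slc46a3, a lysosomal transporter, fell by 1.74 (limma adjusted p = 5.34e-06, and -1.07 rescaled). Without siCtr 1 or without siCtr 2, 3 battery genes were called in place of 10, and Nqo1, the quinone reductase, which fell by 1.65 with all libraries (limma adjusted p = 0.000892), was no longer called (limma adjusted p = 0.413 and 0.372).

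FAOi induces quiescence in naive ESCs, and of the 6 tables, each read on its own scale, this one held the largest P450 differences. Cyp1a1 was at 0.353 and 0.464 FPKM in H2O and 13.3 and 13.9 FPKM in ETO, means of 0.408 ± 0.0788 and 13.6 ± 0.367 (SD, n = 2), 33.3-fold higher. Cyp1b1 was at 0.0815 and 0.0487 FPKM in H2O, about 23 and 10 fragments, and 2.13 and 2.29 FPKM in ETO, 33.9-fold higher. Ahrr, the repressor, was at 0.0438 and 0.0427 FPKM in H2O and 0.484 and 0.468 FPKM in ETO, 11.02-fold higher. For all 3 genes the ETO libraries lay close together and did not overlap the H2O ones. Log2 differences were 4.76 (SE 0.28), 3.81 (SE 0.29) and 2.01 (SE 0.30) in that order, and 5.47 (SE 0.08), 4.32 (SE 0.19) and 2.44 (SE 0.17) after rescaling.

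Arnt was lower with etomoxir, at 20.2 and 28.1 FPKM in H2O and 9.15 and 8.65 FPKM in ETO, 2.72-fold lower (log2 difference -1.41, SE 0.30, and -0.62, SE 0.06, after rescaling). Ahr was at 2.82 and 3.75 FPKM in H2O and 2.63 and 2.50 FPKM in ETO, which read -0.33 on the deposited scale and 0.44 after rescaling. Tiparp was at 9.70 and 13.5 FPKM in H2O and 11.8 and 12.2 FPKM in ETO, overlapping at 0.06 before rescaling and apart at 0.85 after it. H2O 2 lay above H2O 1 for Arnt, Ahr and Tiparp, and the median gene of those libraries lay at 0.51 and 0.19 from the table's mean level. Limma called 3 of 6 members higher and 1 lower, where 13.9% of 25421 genes were called higher and 51.3% lower, and after rescaling 5 higher and 1 lower, where the shares were 30.9% and 31.2%.

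**Figure D2:**
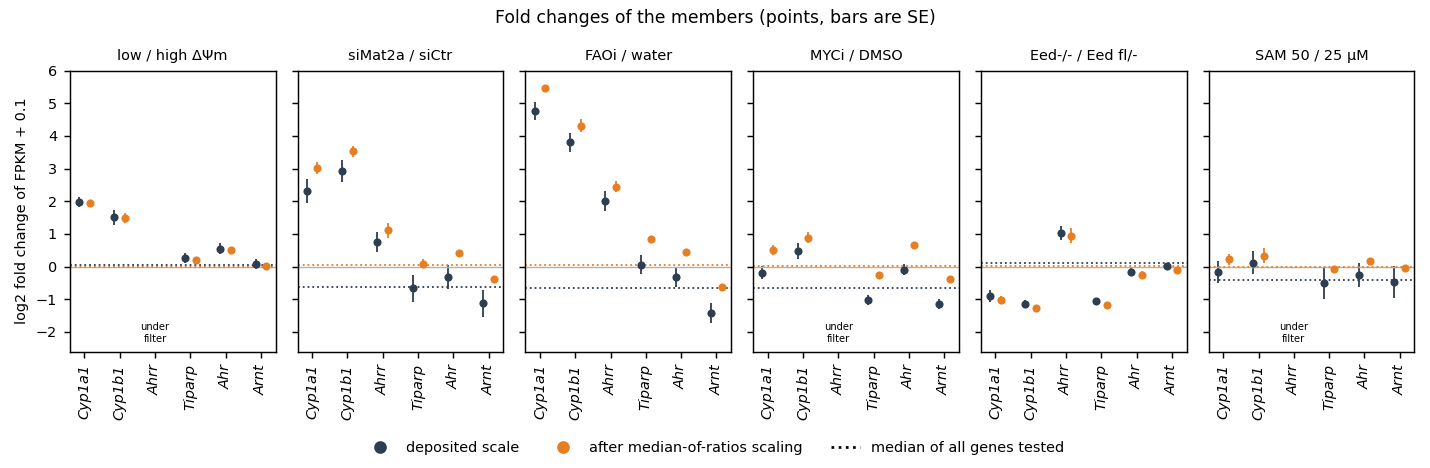
Log2 difference of each member (treated or sorted group minus control, on log2 of FPKM plus 0.1) in the 6 comparisons, before and after median-of-ratios rescaling, with bars of 1 SE. Cyp1a1 and Cyp1b1 lie above 0 in the low-ΔΨm, siMat2a and etomoxir comparisons and below 0 for Eed on both scales, whereas Ahr changes sign with the scale for siMat2a, etomoxir, MYCi and SAM, Tiparp for siMat2a, Cyp1a1 for MYCi and SAM, and Arnt for Eed.

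With etomoxir, 4 battery genes of 17 tested rose and 8 fell (6 and 5 after rescaling), at a median of -0.58 against -0.66 over all genes. The glucuronosyltransferase Ugt1a6b rose from 0.00556 FPKM and a listed 0 to 0.255 and 0.242 FPKM (log2 difference 1.76, limma adjusted p = 3.8e-08), and Ugt1a6a rose by 1.18 (limma adjusted p = 0.000238). These 2 genes share exons of the Ugt1a locus, so how fragments fell between them is uncertain. Both H2O libraries were under 0.1 FPKM for Ugt1a6b and for Cyp1a2. Ugt1a6b and Cyp1a2 could thus enter the test only by rising, and nothing is read from their calls. Cyp1a2 was at 0.0411 and 0.0494 FPKM in H2O and 0.107 and 0.208 FPKM in ETO and rose by 0.80 (limma adjusted p = 0.0139), but not without ETO 2 (0.51, limma adjusted p = 0.188), without H2O 1 (limma adjusted p = 0.126) or without H2O 2 (limma adjusted p = 0.110). Polk rose by 0.68 (limma adjusted p = 0.0286), and not without either ETO library (limma adjusted p = 0.412 for each). Aldh3a1, an aldehyde dehydrogenase, fell from 0.962 to 0.190 FPKM (-1.85, limma adjusted p = 2.84e-09). Slc7a5 fell by 1.61 (limma adjusted p = 1.1e-05) and Hes1, a Notch effector, by 1.43 (limma adjusted p = 4.95e-06), both lost without ETO 1 (limma adjusted p = 0.121 and 0.0759) and without ETO 2 (limma adjusted p = 0.160 and 0.135). Without ETO 1 or without ETO 2, 5 battery genes were called in place of 12.

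**Figure D3:**
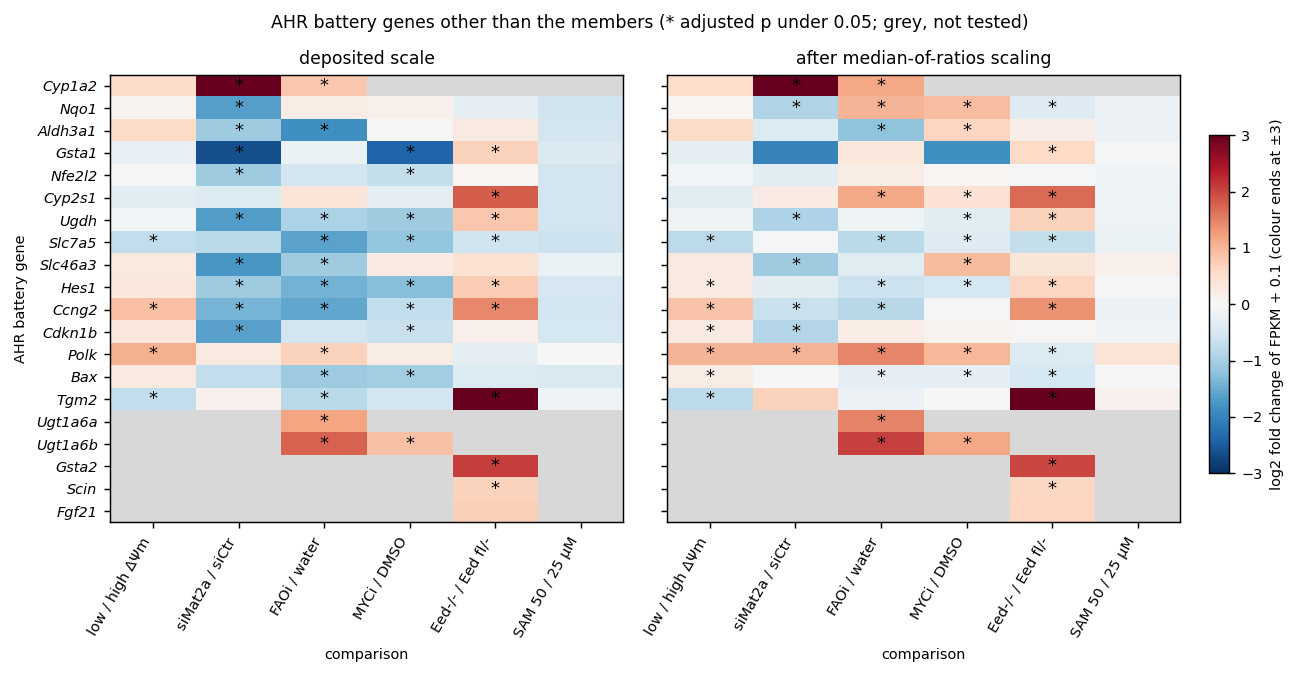
Log2 differences of the AHR battery genes (rows) in the 6 comparisons (columns, case before control), on the deposited scale at left and after rescaling at right, as colour from -3 to 3, grey where a gene was not tested and an asterisk where limma called it. Cyp1a2 stands at 3.02 with Mat2a siRNA and Tgm2 at 3.53 in EedKO, and at left most called genes are lower with siMat2a, etomoxir (FAOi) and MYCi, which fewer are at right.

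With MYCi, the other inducer of quiescence, Cyp1b1 was higher on both scales, and the direction of Cyp1a1 depended on the scale. Cyp1a1 was at 0.966 and 1.20 FPKM in DMSO and 0.841 and 1.04 FPKM in MYCi, overlapping at a log2 difference of -0.19 (SE 0.19), which turned to 0.51 (SE 0.16) without overlap after rescaling. Cyp1b1 was at 0.0784 and 0.0931 FPKM in DMSO and 0.141 and 0.178 FPKM in MYCi, 1.86-fold higher, and its difference was 0.48 (SE 0.26) or 0.89 (SE 0.18) after rescaling. Ahrr, under the filter for testing, was at 0.0257 and 0.0392 FPKM in DMSO, about 9 and 17 fragments, and 0.0514 and 0.0591 FPKM in MYCi. The DMSO and MYCi libraries of both Cyp1b1 and Ahrr did not overlap.

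Arnt and Tiparp were lower under MYCi on both scales, whereas Cyp1a1, Cyp1b1 and Ahr were higher after rescaling, each without overlap. Arnt was at 21.3 and 20.6 FPKM in DMSO and 8.59 and 10.4 FPKM in MYCi, 2.21-fold lower (-1.14, SE 0.16, and -0.38, SE 0.04, after rescaling). Tiparp was at 12.3 and 11.4 FPKM in DMSO and 5.47 and 6.21 FPKM in MYCi, 2.03-fold lower (-1.01, SE 0.15, and -0.25, SE 0.04, after rescaling). Ahr was at 2.80 and 3.12 FPKM in DMSO and 2.51 and 3.07 FPKM in MYCi, -0.09 on the deposited scale and 0.66 after rescaling. Limma called 0 of 5 members higher and 2 lower, where 7.89% of 24335 genes were called higher and 57.8% lower, and after rescaling 3 higher and 2 lower, where the shares were 25.4% and 28.4%. FAOi and MYCi were measured in separate tables with separate controls, and the difference between their effects on Cyp1a1 was not tested.

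In the battery under MYCi, 1 gene of 15 tested rose and 8 fell (6 and 4 after rescaling), at a median of -0.66 against -0.65 over all genes. Ugt1a6b rose from 0.0244 to 0.130 FPKM (0.88, limma adjusted p = 0.0208), a call that was lost without DMSO 1 or without MYCi 2. Its DMSO libraries were under 0.1 FPKM, so it could enter the test only by rising, and nothing is read from that call. Gsta1 fell by 2.40 (limma adjusted p = 0.00259), though not after rescaling (-1.83, limma adjusted p = 0.141). Hes1 fell by 1.29 (limma adjusted p = 0.000107), Slc7a5 by 1.16 (limma adjusted p = 0.000456) and Ugdh, which makes UDP-glucuronic acid, by 1.07 (limma adjusted p = 0.00018), and all 3 fell after rescaling too.

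Loss of EED asked what PRC2 restrains in naive ESCs, and there both P450 genes and Tiparp were lower. Cyp1a1 was at 3.46 and 3.91 FPKM in Het and 1.68 and 2.21 FPKM in EedKO, 1.89-fold lower. Cyp1b1 was at 4.11 and 4.46 FPKM in Het and 1.79 and 2.0 FPKM in EedKO, 2.26-fold lower. Tiparp was at 19.1 and 20.4 FPKM in Het and 9.24 and 9.72 FPKM in EedKO, 2.08-fold lower. All 3 were without overlap, and the Het libraries held the highest Cyp1b1 and Tiparp values of the 24. Log2 differences were -0.90 (SE 0.17), -1.14 (SE 0.12) and -1.05 (SE 0.09), and -1.01 (SE 0.10), -1.25 (SE 0.08) and -1.17 (SE 0.08) after rescaling.

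Ahrr was higher in EedKO, at 0.104 and 0.0544 FPKM in Het and 0.239 and 0.284 FPKM in EedKO, 3.30-fold higher (1.02, SE 0.22, and 0.95, SE 0.22, after rescaling). Ahr was at 2.59 and 2.83 FPKM in Het and 2.46 and 2.38 FPKM in EedKO, a log2 difference of -0.16 (SE 0.12). Arnt was at 11.5 and 11.5 FPKM in Het and 11.5 and 11.8 FPKM in EedKO, with a difference of 0.02 (SE 0.09) that became -0.10 (SE 0.09) after rescaling. Limma called 1 of 6 members higher and 3 lower, where 24.2% of 27015 genes were called higher and 12.1% lower, and the same counts were found after rescaling, where the shares were 25.3% and 22.5%.

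More battery genes rose than fell in EedKO, 8 against 1 of 17 tested (8 and 4 after rescaling), at a median of 0.69 against 0.11 over all genes. Tgm2 rose from 1.41 ± 0.115 to 17.6 ± 3.96 FPKM (3.53, SE 0.18, limma adjusted p = 0.00117). Cyp2s1, another P450 that AHR ligands induce, rose from 1.94 to 7.07 FPKM (1.81, limma adjusted p = 0.00134), opposite to Cyp1a1 and Cyp1b1. Gsta2 rose by 2.07 (limma adjusted p = 0.00483) and Ccng2 by 1.45 (limma adjusted p = 0.00295). Slc7a5 fell by 0.59 (limma adjusted p = 0.0147), and not without either Het library (limma adjusted p = 0.110 and 0.181). Without Het 1, 5 battery genes were called in place of 9.

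Between the SAM doses the members differed little beside their SEs, and limma called none. Cyp1a1 was at 0.966 and 0.892 FPKM at 25 µM and 1.003 and 0.659 FPKM at 50 µM, and its difference of -0.17 (SE 0.33) became 0.22 (SE 0.17) after rescaling. Cyp1b1 was at 0.108 and 0.0890 FPKM at 25 µM and 0.142 and 0.0923 FPKM at 50 µM (0.12, SE 0.35, and 0.34, SE 0.23). Replicate 2 lay below replicate 1 at both doses for both genes. The median gene of LowSAM50uM 2 lay at -0.42, beside 0.04 for LowSAM50uM 1, and that of LowSAM25uM 2 at 0.03, beside 0.38 for LowSAM25uM 1. Ahr was at 2.53 and 2.01 FPKM at 25 µM and 2.36 and 1.49 FPKM at 50 µM (-0.25 before and 0.16 after rescaling). Arnt was at 18.0 and 13.8 FPKM at 25 µM and 14.3 and 9.04 FPKM at 50 µM (-0.47, SE 0.48). Tiparp was at 15.4 and 11.4 FPKM at 25 µM and 11.2 and 7.64 FPKM at 50 µM (-0.52, SE 0.47, and -0.08, SE 0.07, after rescaling). Ahrr stayed between 0.0208 and 0.0341 FPKM, under the filter. Only Tiparp, lower at 50 µM, and Ahrr, higher, did not overlap between the doses on the deposited scale, and after rescaling Cyp1a1, Cyp1b1 and Ahr did not overlap either, being higher at 50 µM. The share of all genes without overlap between the doses is not given here, so nothing is read from these members.

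Limma called 0 of 5 members in either direction between the doses, where 0.389% of 23911 genes were called higher and 0.493% lower, and 0.0% and 0.0% after rescaling. At an unadjusted p under 0.05, 365 genes were higher and 916 lower, and 960 and 489 after rescaling. None of 14 battery genes was called by limma, and none had an unadjusted p under 0.05 on the deposited scale (1 higher and 0 lower after rescaling). The battery median was -0.54, beside -0.40 over all genes.

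Chaperones and coactivators hold AHR in the cytoplasm or serve it at its targets. Of 11 chaperone and coactivator genes, 0 were called in Low (1 higher and 0 lower at an unadjusted limma p under 0.05), 4 fell with Mat2a siRNA, 7 with etomoxir and 9 with MYCi, at medians of -0.74, -1.06 and -0.88, where 36.8%, 51.3% and 57.8% of all genes were called lower. After rescaling 2 rose and 3 fell with Mat2a siRNA, 4 and 6 with etomoxir, and 3 and 5 with MYCi, and in Low 2 and 1. Ptges3, the HSP90 co-chaperone p23, fell from 163 to 70.2 FPKM with MYCi (-1.22, limma adjusted p = 0.000434), from 180 to 61.6 FPKM with etomoxir and from 181 to 65.5 FPKM with Mat2a siRNA (limma adjusted p = 5.09e-05 and 0.00566, lost without either ETO or either siCtr library, at 0.155 to 0.472). In EedKO 1 rose and 3 fell (1 and 6 after rescaling), Ep300 by 0.55 (limma adjusted p = 0.0122).

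HIF targets share ARNT with AHR. Of 23 tested with Mat2a siRNA 3 rose and 17 fell, of 24 with etomoxir 3 and 15, and of 21 with MYCi 1 and 17, at medians of -1.46, -1.15 and -1.19, beside the shares of all genes above. After rescaling the counts were 3 and 15, 7 and 13, and 4 and 12, where 19.8%, 31.2% and 28.4% of all genes were called lower. Ldha, lactate dehydrogenase, fell from 82.0 to 7.73 FPKM with etomoxir (-3.38, limma adjusted p = 9.98e-26) and from 67.1 to 9.96 FPKM with MYCi (-2.75, limma adjusted p = 1.19e-05). Bnip3, a mitophagy receptor, fell by 4.0 with Mat2a siRNA (limma adjusted p = 3.21e-23). P4ha2, a collagen prolyl hydroxylase, rose with Mat2a siRNA by 2.42 (limma adjusted p = 6.68e-11) and in Low by 2.54 (limma adjusted p = 1.67e-06), among 6 that rose and 2 that fell of 21 there (9 and 3 after rescaling). In EedKO 15 of 24 rose and 2 fell (13 and 2 after rescaling), where 24.2% of all genes were called higher, with Ndrg1 up from 2.09 to 15.3 FPKM (2.81, limma adjusted p = 0.000956). Of the bHLH-PAS relatives of AHR and ARNT, 1 of 8 was higher and 0 lower in Low, and the counts were 2 higher and 2 lower of 10 with Mat2a siRNA, 3 and 3 of 10 with etomoxir, 1 and 5 of 9 with MYCi and 3 and 1 of 10 in EedKO, and on rescaling 4 and 1, 4 and 1, 6 and 1, 3 and 0, and 3 and 2. Sim2 rose by 1.97 with etomoxir (limma adjusted p = 5.78e-10) and by 2.31 in EedKO (limma adjusted p = 0.00616). Its H2O and Het libraries were all under 0.1 FPKM, so it could enter both tests only by rising. With Mat2a siRNA the same held for Npas3, counted higher on both scales, and for Npas2, counted higher after rescaling.

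Enzymes that serve P450 proteins or supply AHR ligands were the next group, read beside the same shares of all genes. Por, Cyb5a and Cyb5r3, the electron donors of P450 enzymes, all fell with Mat2a siRNA, with MYCi and with etomoxir. With etomoxir Cyb5r3 went from 32.7 to 11.9 FPKM (-1.43, limma adjusted p = 1.01e-05), and Por no longer fell after rescaling (0.012). Over the list of donors and other P450 genes, 0 of 3 were called in Low (none at an unadjusted limma p under 0.05), and 0 higher and 4 lower of 4 with Mat2a siRNA, 1 and 4 of 5 with etomoxir, 0 and 3 of 4 with MYCi and 0 and 2 of 4 in EedKO, and after rescaling 0 and 1, 0 and 3, 1 and 3, 1 and 3, and 2 and 2. Cyp2e1, the riser with etomoxir, was under 0.1 FPKM in both H2O libraries and could enter only by rising. Cyp3a13 with Mat2a siRNA and etomoxir, and Cyp2c29 in EedKO, could enter only by falling. Of the enzymes that turn tryptophan into kynurenine-type AHR ligands, Ido2 fell in Low from 1.75 to 0.390 FPKM (-1.92, limma adjusted p = 3.88e-06), with etomoxir from 5.39 to 1.29 FPKM (-1.98, limma adjusted p = 5.33e-11) and with MYCi from 5.43 to 1.58 FPKM (-1.72, limma adjusted p = 3.6e-05). Kyat3, a kynurenine aminotransferase, fell with etomoxir from 3.6 to 0.484 FPKM (-2.64, limma adjusted p = 1.52e-18). In all, 0 kynurenine enzymes rose and 2 fell of 5 in Low, 0 and 2 of 5 with Mat2a siRNA, 0 and 3 of 5 with etomoxir, 0 and 5 of 5 with MYCi and 3 and 1 of 7 in EedKO, and after rescaling 1 and 3, 1 and 1, 2 and 2, 1 and 2, and 3 and 1. Aadat, the enzyme that fell in EedKO, was under 0.1 FPKM in both EedKO libraries and could enter only by falling.

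Among the relatives of Tiparp, Parp10, a mono-ADP-ribosyl transferase, rose in Low from 0.205 to 0.827 FPKM (1.61, limma adjusted p = 7.69e-05). It rose with Mat2a siRNA from 0.404 to 1.11 FPKM (1.27, limma adjusted p = 0.00106) and with etomoxir from 0.189 to 0.989 FPKM (1.91, limma adjusted p = 7.48e-10). In EedKO it rose from 0.201 to 0.745 FPKM (1.48, limma adjusted p = 0.00835), where Tiparp itself was 2.08-fold lower. Over the transferases and hydrolases, 4 of 12 rose and 0 fell in Low, 1 and 6 of 12 with Mat2a siRNA, 2 and 3 of 12 with etomoxir, 0 and 7 of 12 with MYCi and 7 and 0 of 13 in EedKO, and after rescaling 4 and 0, 2 and 2, 6 and 1, 5 and 2, and 8 and 1. Among 8 other xenobiotic sensors, 1 rose and 1 fell of 7 in Low, 1 and 3 with Mat2a siRNA, 0 and 4 with etomoxir, 0 and 5 with MYCi and 3 and 0 of 8 in EedKO, and after rescaling 1 and 2, 2 and 0, 2 and 1, 1 and 2, and 3 and 1. Nr1i2, the pregnane X receptor, rose by 1.16 in EedKO (limma adjusted p = 0.0169), and Rxra, the shared nuclear receptor partner, by 1.1 (limma adjusted p = 0.00893). Nr1i2 and Ppara, the third sensor that rose in EedKO, were under 0.1 FPKM in both Het libraries. Nr1i2, the sensor that rose with Mat2a siRNA, was also under 0.1 FPKM in both siCtr libraries. These genes could thus enter those tests only by rising. None of these lists had a gene called by limma between the SAM doses, and at an unadjusted p under 0.05 none had any on the deposited scale.

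Markers of other cell types moved in the same comparisons, and their part in the P450 values was not tested. Fibroblast markers were listed because the Eed lines met feeder cells and because fibroblasts express Cyp1b1. They summed to 10.2 and 11.8 FPKM in Het and 13.3 and 15.5 FPKM in EedKO, with no marker of 16 at 0 in both libraries of either genotype. In EedKO 7 of 9 tested rose and 2 fell on both scales, and the 2 that fell were the collagens Col1a1, from 6.24 ± 0.784 to 0.666 ± 0.0216 FPKM, and Col1a2, from 0.400 ± 0.0276 to 0.0457 ± 0.0199 FPKM. With etomoxir the fibroblast sum was 4.69 and 6.54 FPKM in H2O and 2.68 and 2.42 FPKM in ETO, and 0 of 7 rose and 3 fell (3 and 3 after rescaling). In the ΔΨm sort the sum was 4.29 and 4.60 FPKM in High and 5.72 and 5.40 FPKM in Low, and 3 of 6 rose and 2 fell on both scales. With Mat2a siRNA 5 of 8 rose and 1 fell (7 and 1 after rescaling), and with MYCi 0 of 6 rose and 2 fell on both scales. Some of these markers were under 0.1 FPKM in both libraries of 1 group, so the filter fixed their direction. Among those that rose were Col1a1, Col1a2 and Thy1 with Mat2a siRNA and Postn in EedKO. Among those that fell were Col1a2 in EedKO, Thy1 with etomoxir and Lum in Low.

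Trophoblast markers summed to 77.2 and 85.3 FPKM in Het and 207 and 289 FPKM in EedKO (10 of 13 higher and 1 lower, and 11 and 2 after rescaling). With etomoxir they summed to 22.9 and 31.2 FPKM in H2O and 42.2 and 43.3 FPKM in ETO (7 of 10 higher and 1 lower, and 9 and 1 after rescaling). The largest rises in FPKM were those of the keratins Krt8, from 1.57 to 9.28, and Krt18, from 1.40 to 10.2. The lower marker was Cdx2, which fell from 3.67 to 0.148 FPKM. Cdx2 was also called lower with Mat2a siRNA and with MYCi, and higher in EedKO. Prl3d1 and Tpbpa were listed at 0 in both libraries of Het, H2O and ETO, and Tpbpa in both of EedKO. Between siCtr and siMat2a the trophoblast sum overlapped, at 18.8 to 20.9 and 12.9 to 20.9 FPKM (6 of 10 higher and 1 lower on both scales). Most of that sum was Tfap2c, at 15.6 and 13.9 FPKM in siCtr and 11.6 and 7.78 FPKM in siMat2a. In Low 3 of 9 rose and 2 fell on both scales, and with MYCi 3 and 4 of 9 (4 and 1 after rescaling). Endoderm markers summed to 18.3 and 20.0 FPKM in Het and 62.9 and 70.8 FPKM in EedKO (9 of 10 higher and 0 lower on both scales). With etomoxir 4 of 7 endoderm markers rose and 1 fell (5 and 1 after rescaling), although their summed level was 19.4 and 24.5 FPKM in H2O and 12.4 and 11.7 FPKM in ETO. Most of that sum was Lama1, the marker that fell, at 17.9 and 22.7 FPKM in H2O and 7.46 and 7.02 FPKM in ETO. In Low 3 of 8 rose and 0 fell (4 and 0 after rescaling), with Mat2a siRNA 4 and 1 of 8 on both scales, and with MYCi 1 and 0 of 7 (5 and 0 after rescaling). Several risers had both controls under 0.1 FPKM and could enter the test only by rising. With Mat2a siRNA these were Gata3, Krt7, Gcm1, Gata6 and Dab2, and in Low Krt7, Gata4 and Gata6. With etomoxir they were Krt7 and Foxa2, with MYCi Gata6, and in EedKO Elf5, Prl3d1, Sox17 and Foxa2. Of 12 naive ESC markers 0 rose and 7 fell with Mat2a siRNA (2 and 7 after rescaling), 0 and 11 with etomoxir (1 and 11), 1 and 11 with MYCi (1 and 9), 1 and 1 in Low (6 and 1) and 5 and 4 in EedKO (5 and 6). Between the SAM doses limma called none of these markers, and at an unadjusted p under 0.05 on the deposited scale only 1 naive ESC and 1 trophoblast marker were lower.

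As a description of likeness, log2(FPKM + 0.1) was centred on the mean of each table and compared over the 24 libraries among 16289 genes. Cyp1b1 was the gene most like Cyp1a1 (Pearson r = 0.965), before Cep126, a centrosomal protein (r = 0.960), and Gadd45a, a stress-response gene (r = 0.945). Ptgs2, the inducible cyclooxygenase, was most like Cyp1b1 (r = 0.969), followed by Cyp1a1 and by Nkx2-9, a homeobox gene (r = 0.961). Cyp1a1 had r = -0.08 with Ahr, -0.62 with Arnt and 0.10 with Tiparp, and Cyp1b1 had -0.16, -0.72 and -0.03. These r values were taken on the deposited scale only, so shifts of whole libraries enter them. Rescaling changed the sign of Ahr for siMat2a, etomoxir, MYCi and SAM, so nothing is read from the low or negative values. Ahrr was under the filter in 3 tables and was not compared. The points share libraries and tables, 2 to a group, and the etomoxir and siMat2a tables hold most of the range, so these values are given with no p.

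**Figure D4:**
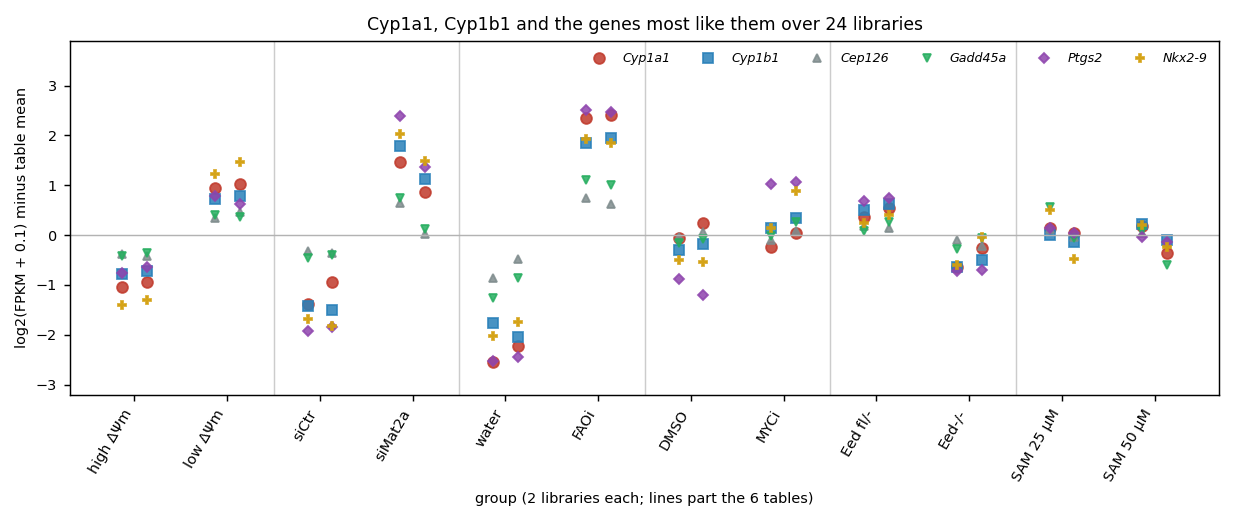
Log2(FPKM + 0.1), centred on the mean of each table, of Cyp1a1, Cyp1b1 and the 4 other genes most like them, with a point for each of the 24 libraries and lines between tables. The etomoxir (FAOi), siMat2a and low-ΔΨm libraries lie above their controls for these genes.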

How the data were processed

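The libraries were paired RNA-seq of mouse ESCs, 2 per group. According to the methods and the submitters' processing notes, reads were trimmed with Trim Galore and cutadapt, aligned to mm10 (GRCm38) with ERCC spike-ins by TopHat2 2.1.1, stripped of duplicates with SAMtools 1.9 and counted without strand by featureCounts over Ensembl, NONCODE and HOMER 4.10 repeat features, with multi-mapping and overlapping fragments divided. The authors then computed the FPKM values that were deposited, with edgeR, in 6 separate tables. Tests across tables were not made. The study's own test needs counts and was not used.

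Of 55385 Ensembl genes, 55144 matched the annotation that gave symbols. A gene entered the test where 2 or more libraries of its table reached 0.1 FPKM, and limma 3.58.1 (R 4.3.3, trend, eBayes) was run on log2(FPKM + 0.1) over the 4 libraries, with Benjamini-Hochberg adjustment over all genes tested, called under 0.05, and the code was tested on simulated data. A fold change on that scale understates the change of low genes. A gene under 0.1 FPKM in both libraries of 1 group could enter only by being higher in the other group, so its direction was fixed in advance. Alternatives were pseudocounts of 1 and 0.01, a minimum of 1 FPKM, no filter, median-of-ratios scaling, a replicate block and leaving out each library. Ensembl features only were used, and no column lacked a sample. Tables and figures were made with Python 3.11.15. Counts and standard errors cover these libraries only. Depth was estimated from FPKM steps, so fragment numbers are approximate.

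The members and the 12 gene lists were chosen with earlier results of these data known. A gene of the chaperone list is not reported here and was left out of its counts. Named were the 6 members, up to 4 called genes of a list per comparison by size of change, and the 3 genes most like Cyp1a1 and like Cyp1b1 among genes that passed the filter in all tables with a mean of at least 1 FPKM in a table. Promoters came from RefSeq on GRCm38.p6.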

Additional observations from a re-analysis of the deposited data

How the results depend on the processing

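Cyp1a1 and Cyp1b1 kept their direction in the ΔΨm, Mat2a, etomoxir and Eed comparisons under all alternatives run, with log2 differences of Cyp1a1 from 1.06 to 2.19, 1.62 to 3.03, 3.38 to 5.47 and -1.08 to -0.67, and of Cyp1b1 from 0.29 to 2.89, 1.45 to 3.53, 1.59 to 4.92 and -1.25 to -0.87. The pseudocount sets much of that range for Cyp1b1. In the battery, rescaling called 7 genes in place of 4 for ΔΨm, the absence of a filter 2 in place of 10 for Mat2a, and a minimum of 1 FPKM 7 in place of 12 for etomoxir, where 11 battery genes were tested. Leaving out a library gave 3 to 5 battery genes for ΔΨm, 3 to 13 for Mat2a, 5 to 13 for etomoxir, 6 to 9 for MYCi, 5 to 8 for Eed and 0 for SAM. Rescaling reversed 6 called list genes under MYCi, to 0.052 for Nfe2l2, 0.10 for Cdkn1b, 0.066 for Hif1a, 0.067 for Arntl, 0.012 for Kyat1 and 0.19 for Afmid, none called after it.

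Over all genes, 4308 were called for ΔΨm, and 1702 without a filter or 7672 after rescaling. For Mat2a 12443 were called, 1436 without a filter and 2658 to 16069 without a library. For etomoxir 16577 were called and 5298 to 17994 without a library, and for Eed 9800 and 5554 to 7346. For SAM 211 were called, 14 with a minimum of 1 FPKM, 0 without a filter, 0 after rescaling, and 139 to 231 without a library. The cause of these changes was not tested.

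Replicate numbers are shared between groups, but nothing states that a number marks a shared culture. The deviations of same-numbered libraries correlated across genes at -0.02 for ΔΨm, -0.02 for Mat2a, -0.10 for etomoxir, 0.01 for MYCi, 0.07 for Eed and 0.30 for SAM. With the replicate block, 11 of 14 battery genes and 12828 of all genes were called for SAM, against 0 and 211 without it, and the block moved no other battery count or all-gene count by over 1.5 times. With 2 libraries a group, depth limits Ahrr and the control levels of Cyp1b1 most.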
